A study of Drosophila melanogaster with 384 samples.

Results

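The box C/D methylation guide small nucleolar RNAs (snoRNAs) of Drosophila melanogaster were taken as all FlyBase genes in the count table whose symbol starts with snoRNA:Me. There were 73 of them among 40020 gene models, of which 39823 were considered after ribosomal and mitochondrial models were set aside. The symbol names the RNA that is modified and the modified base, so that snoRNA:Me28S-A1322 guides the methylation of an adenosine in the 28S rRNA. By symbol, 51 guides are directed to 28S rRNA, 19 to 18S rRNA, 2 to the spliceosomal U6 RNA and 1 to 5.8S rRNA, and the target base is A for 26, G for 23, C for 16 and U for 8.

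Box C/D snoRNAs are short nuclear RNAs that carry the conserved sequence boxes C and D. Each base-pairs with a stretch of a target RNA and positions the methyltransferase fibrillarin to methylate the ribose of 1 nucleotide, mostly in precursors of ribosomal RNA in the nucleolus. A second family, the box H/ACA snoRNAs, guides the conversion of uridine to pseudouridine with a different set of proteins. In flies most guides of both families lie in introns of longer transcripts, called host genes, and are cut out of the spliced intron. Some hosts encode ribosomal proteins or other housekeeping proteins, and others, named Uhg, are non-coding transcripts that carry several guides.

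The libraries came from whole flies of 96 lines of the Drosophila Genetic Reference Panel (DGRP), a set of inbred lines founded from wild-caught females. Flies of all groups had been reared on medium that contained 10% (v/v) ethanol, and flies reared on regular medium were not analysed here. Every library held the pooled RNA of 25 females or 30 males that were 3 to 5 days old, and each line had 2 replicate libraries of each sex, 384 in all. The sources used here do not say whether replicates came from separate cultures, so their spread may be partly technical. Libraries held between 5356737 and 17401404 counts on the gene models considered, with a median of 10270156. Levels are given as CPM, counts scaled to the size of the library after TMM normalization, and the value of a line is taken from both replicates together. The 7 markers of female tissues that were measured, among them the yolk protein genes Yp1, Yp2 and Yp3, were 262-fold to 447-fold higher in females, and the ratio of females to males for the 8 markers of accessory gland and testis lay between 0.00168 and 0.00216, as the sex labels say. All 7 flow cells and the replicate numbers are partly tied to each other and to line, and values by flow cell are given where they bear on a guide.

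The guides were scarce. Of the 73 genes, 63 had at least 1 count and 10 had none in any of the 384 libraries, which allows up to 3 counts for each over all libraries together. The 10 were Me18S-A1374, Me18S-A425, Me28S-C2645a, Me28S-C2645c, Me28S-G1083a, Me28S-G1083b, Me28S-G1083c, Me28S-G1083d, Me28S-U2134a and Me5.8S-G74. In release 6 of the annotation (BDGP6) each of these 10 overlaps an exon of its host gene, whereas none of the other 63 does, and a read that overlaps 2 genes can be left without a gene, so that a count of 0 here does not show that a guide was not made. The part of this overlap in the zeros was not tested. Another 5 annotated guides were not analysed here. The total over 384 libraries of the 63 guides with counts was between 6 and 18199 with a median of 835 counts. Together they held 106864 counts, while the 106 box H/ACA guides in the same table held 217 times as many. Annotated lengths were 46 to 116 bases (median 79) for the methylation guides and 124 to 268 bases (median 140) for the H/ACA guides, and libraries were size selected, so that the ratio of the families in counts is not a ratio of molecules. Across the methylation guides the level in females and the length had a Spearman correlation of -0.05 over 63 guides that share the same libraries.

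A total of 62 of the 63 counted guides lie only in introns of a host, and Me18S-A1806 has no annotated host. For a guide in an intron, reads from the guide and reads from an unspliced host transcript cannot be told apart. The hosts with most guides were Uhg5 with 10, Sf3b3 (a spliceosome subunit) with 6, of which 5 are also inside lncRNA:CR45184, Uhg1 with 5, Uhg4 with 4 and Nop60B with 4. Uhg3, Uhg8, RpL3, dom (a chromatin remodelling ATPase) and the overlapping pair RpL23A and Uhg7 held 3 each. The 4 guides in Nop60B, which encodes the pseudouridine synthase of the H/ACA particle, are the 4 Me28S-G1083 guides at 0. A gene on the other strand overlaps 4 guides (Me18S-A425, Me18S-C1096, Me28S-A2634c and Me28S-G3253), and since the strand setting of the counting step is not given in the sources used here, their values are less certain. The same holds for lettered copies such as Me28S-G2703a, b and c, since reads that match several places were not counted.

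Levels per length separated a few guides from the rest. In females, Me28S-A1322 had 65.3 CPM per kb and was followed by Me18S-C1968 at 38.3, Me28S-A2564 at 29.2, Me28S-A771 at 29.2 and Me18S-C1831 at 25.2 CPM per kb. In males, Me28S-A1322 had 59.9 CPM per kb, and Me18S-G1358b at 12.4, Me28S-A771 at 8.96, Me28S-A2564 at 7.12 and Me18S-C1831 at 5.96 CPM per kb came next. Me28S-A1322 was therefore first in both sexes, and in males it was several times above every other guide. Me18S-C1968, the next after it in females, had 4.87 CPM per kb in males. The 5 guides with most counts held 38.2% of all counts on methylation guides. Guides directed to 18S rRNA had a median of 6.10 CPM per kb in females and 1.68 in males (17 guides), and those directed to 28S rRNA had 4.29 and 1.11 (44 guides).

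The question of the first comparison was how the level of each guide differs between females and males of the same line. The summed level of the guides over the 96 female lines was 21.8 CPM at the lowest, 41.4 at the median and 127 at the highest, and over the 96 male lines it was 6.59, 13.9 and 21.5 CPM. No female line was below the highest male line, and all 96 lines were higher in females. Without Me28S-A1322 the medians were 36.2 CPM in females and 9.38 in males, and again all 96 lines were higher in females. The H/ACA guides had medians of 8396 and 2457 CPM and were higher in females in 91 lines, but 33 female lines were below the highest male line. In whole flies, fewer cells of a type and less RNA per cell cannot be told apart, and the ovary makes up much of a female at this age.

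Of the 63 counted guides, 61 had a higher pooled level in females and 57 were at least 2-fold higher. The ratio of females to males was between 0.906 and 9.15 with a median of 3.76, and the median over the 106 H/ACA guides was also 3.76. In edgeR's quasi-likelihood test without a filter on low counts, with line as a block and Benjamini-Hochberg adjustment over all transcripts, 59 of 63 guides were called, all higher in females, with a median log2 difference (males minus females) of -1.90. In that fit 70.5% of 39239 transcripts were called, 27.4% as higher in females, and the median of all transcripts was 0.11. With the minimum of a mean of 5 counts, 95.1% of 18062 transcripts were called, 36% as higher in females, 59.1% as higher in males, and the median was 0.39. That minimum was passed by 15 guides, but 11 of these had a mean under 5 counts in males and passed through their female libraries, so that they had to differ and their number says nothing about the group. The 4 guides that also had a mean of at least 5 counts in males were Me28S-A1322, Me18S-G1358b, Me28S-A771 and Me18S-C1968.

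**Figure D1:**
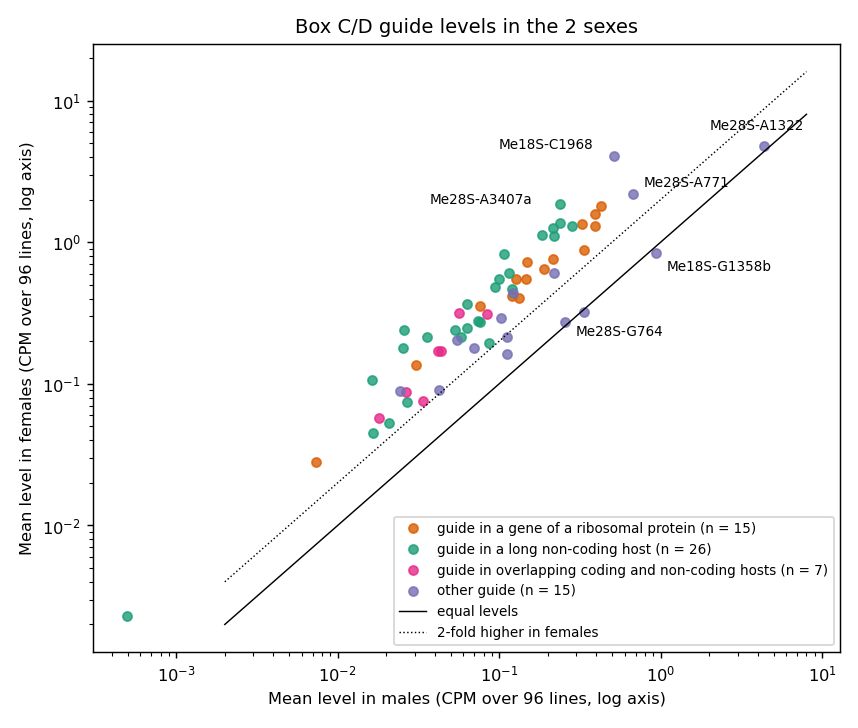
Mean level of each counted guide over 96 lines in males (horizontal) and females (vertical), in CPM on log axes, with 1 point per guide coloured by the kind of host. Most points lie above the dotted line of a 2-fold higher level in females (57 of 63 by pooled CPM), and Me28S-A1322, Me28S-G764 and Me18S-G1358b lie near the line of equal levels.

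Me18S-C1968, which lies in an intron of Swim, had the strongest difference among these 4 guides. It was between 0.632 and 12.0 CPM with a median of 3.56 over the female lines, and between 0.0479 and 3.36 CPM with a median of 0.445 over the male lines. Every line was higher in females although the ranges overlap, and the log2 difference was -2.89 ± 0.11 (SE, taken from the log2 difference and its F, n = 96 lines, adjusted p = 5.3e-47 by edgeR's quasi-likelihood test). Its host did not follow, since Swim was at 65.8 ± 11.0 CPM in females and 73.9 ± 13.9 in males (mean ± SD, n = 96 lines each), a log2 difference of 0.18 ± 0.02. Expressed as ratios of females to males, this was 7.77 for the guide and 0.891 for the host. The size of the difference depended on the replicate, since the guide was at 4.32 CPM in females and 0.894 CPM in males in replicate 1 (log2 difference -2.22) and at 3.64 and 0.165 CPM in replicate 2 (-4.32).

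Me28S-A771, in an intron of Sf3b3, was between 0.660 and 4.87 CPM (median 2.11) in female lines and between 0.112 and 1.29 CPM (median 0.638) in male lines. It was higher in females in 96 of 96 lines, with a log2 difference of -1.68 ± 0.06 (adjusted p = 1.2e-48, edgeR). The ratio of females to males was 3.25 for this guide and 4.45 for Sf3b3 itself.

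Of the 4 guides with enough counts in both sexes, Me28S-A1322 and Me18S-G1358b had close to the same level in females and males. Me28S-A1322, in an intron of the gene of the translation elongation factor eEF1alpha1, was between 1.90 and 8.91 CPM (median 4.80) in female lines and between 2.01 and 7.39 CPM (median 4.19) in male lines. The ranges overlap almost wholly, 61 of 96 lines were higher in females, and the log2 difference was -0.12 ± 0.04 (adjusted p = 0.0053, edgeR), a call that was lost with DESeq2's size factors (-0.01, adjusted p = 0.73) and with scaling to total counts (-0.04, adjusted p = 0.31), and whose sign turned with replicate 2 alone (0.06, adjusted p = 0.21). Me18S-G1358b, in an intron of drn, was between 0 and 1.73 CPM (median 0.859) in female lines and between 0.112 and 1.43 CPM (median 0.960) in male lines. It was higher in females in 38 lines only, and the log2 difference of 0.17 ± 0.08 (adjusted p = 0.032, edgeR) was lost without the filter (0.04, adjusted p = 0.68), with replicate 1 alone (0.04, adjusted p = 0.76) and with the replicate block (0.14, adjusted p = 0.050), and its sign turned in the lines on flow cells A and B (-0.013, adjusted p = 0.89). Its second copy in drn, Me18S-G1358a, had a ratio of females to males of 0.956, with a log2 difference of -0.05 ± 0.10 without the filter. Me28S-G764 in Arf1 had a ratio of 1.07 and a log2 difference of -0.20 ± 0.12 (adjusted p = 0.14). These 3 guides and Me28S-A2486, which had 6 counts in all, were the 4 counted guides without a call in the fit that had no filter.

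Several guides of Uhg hosts that passed the filter through their female libraries alone had differences of like size, and since they had to differ, their values are a description without a test. Me28S-A3407a of Uhg1 was between 0.353 and 3.58 CPM (median 1.75) in female lines and between 0 and 0.901 CPM (median 0.212) in male lines, which overlap, with a log2 difference of -2.91 ± 0.09. The differences were -2.53 ± 0.11 for Me28S-G2703a of Uhg5 (medians 1.08 and 0.176 CPM), -2.42 ± 0.09 for Me18S-A1576 of Uhg2 (medians 1.20 and 0.216 CPM) and -2.27 ± 0.12 for Me18S-C1366 of Uhg5 (medians 0.536 and 0.102 CPM). Me18S-C1366 passed the filter through DGRP_217 alone, as given below, and without that line it had a mean of 3.43 counts. The highest ratio of females to males among all counted guides, 9.15, belonged to Me18S-U1356b of Uhg8, which had 460 counts in females and 53 in males.

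Just inside the filter, Me18S-C419 had a log2 sex difference of -1.37 ± 0.10, Me28S-G2703a had -2.53 and Me28S-G3255a had -2.27 ± 0.09. Just outside it, the values without a filter were -1.89 ± 0.09 for Me28S-G2173, -2.92 ± 0.12 for Me28S-C3227a and -2.33 ± 0.11 for Me18S-C1096. The 3 guides inside the filter passed through their female libraries, so these values too are a description.

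The kind of host ordered the sex ratios only loosely. The median ratio of females to males was 5.10 (range 2.27 to 9.15) for 26 guides whose only host is non-coding, 3.79 (range 2.64 to 4.88) for 15 guides whose only host is a gene of a ribosomal protein, and 2.70 (range 0.906 to 7.77) for 15 other guides. The 7 counted guides inside RpL23A and Uhg7 or inside Sf3b3 and lncRNA:CR45184 had a median of 3.61 (range 2.25 to 5.62), and with them the median of all 33 guides in a non-coding host was 4.62. By target, the medians were 4.58 for 17 guides to 18S rRNA, 3.71 for 44 guides to 28S rRNA and 2.46 for the 2 guides to U6, and by target base they were between 3.69 and 4.28. Within 1 host the guides differed, from 2.71 to 7.63 in Uhg1, whose own ratio was 4.87, and from 2.25 to 4.11 in Sf3b3. Both the guide and its host were higher in females in 61 of 65 pairs of guide and measured host, and the Spearman correlation of the log2 ratios over these pairs, many of which share a host, was 0.24. The host genes Uhg1, Uhg2, Uhg3, Uhg4, Uhg5, Uhg7 and Uhg8 had log2 differences between -1.69 and -2.71, and the tested ribosomal protein hosts had values between -1.25 and -1.53. For drn, which holds both Me18S-G1358 guides, the log2 difference was -0.39 ± 0.02, and for Dys it was 0.08 ± 0.01.

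The protein partners of the guides were higher in females too. Fib, which encodes fibrillarin, was at 124 ± 24.1 CPM in females and 14.7 ± 2.28 CPM in males (mean ± SD, n = 96 lines each), with no overlap between the sexes and a log2 difference of -3.04 ± 0.03. Nop56 and nop5, which encode the scaffold proteins of the methylation particle, had -3.41 ± 0.03 and -3.85 ± 0.04, and Nopp140, a nucleolar chaperone, had -2.97 ± 0.03. The assembly factors pont, rept and spag differed less, by -0.89, -0.77 and -0.75 on the log2 scale. All 7 of these genes were called as higher in females, beside the 36% of all transcripts given above. The 4 genes of the core of the H/ACA particle had -4.21 for Nop60B, -2.85 for NHP2, -2.72 for Nop10 and -3.27 for Gar1. The fourth protein of the methylation particle, encoded by hoip, was not analysed here.

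Variation among lines was tested within each sex with flow cell as a covariate, since lines were spread unevenly over flow cells. In females 10 of the 24 guides with a mean of at least 5 counts were called in edgeR's quasi-likelihood test, while 82.5% of all 14760 transcripts tested were called. The median F was 1.30 over the guides and 2.21 over all transcripts. A mean of 5 counts gives a wide counting error. Transcripts with like counts were not compared, so the part of low counts in these shares was not tested. Without a filter 15 of 63 guides were called against 38.8% of all transcripts. The 10 guides were Me18S-C1366, Me28S-C3227a, Me28S-G2017, Me28S-G3081a, Me18S-C1968, Me28S-A1322, Me28S-A3407a, Me28S-G2703a, Me18S-A1576 and Me28S-A2589b, with F from 20.1 down to 1.41.

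**Figure D2:**
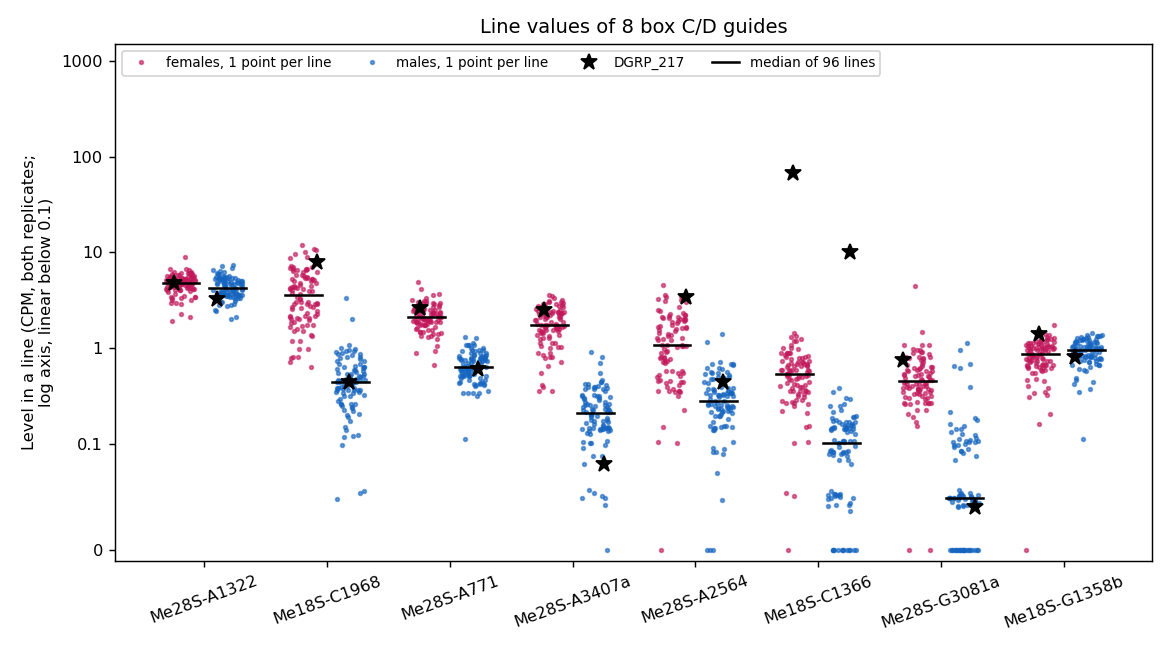
Level of 8 guides in each of the 96 lines, with 1 point per line for females and for males, in CPM on an axis that is linear below 0.1 and logarithmic above. Bars are medians over lines and stars are DGRP_217. Me18S-C1366 in DGRP_217 is at 66.8 CPM in females and 10.0 CPM in males, far from every other line.

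The largest F belonged to Me18S-C1366, the first guide along Uhg5, and it rested on a single line. In females of DGRP_217 it was at 66.8 CPM, with 510 and 738 counts in the 2 replicates, while the median of the other 95 lines was 0.535 CPM and the highest of them was 1.44 CPM. In males of DGRP_217 it was at 10.0 CPM, with 178 and 70 counts, while the other lines had a median of 0.102 and a highest value of 0.384 CPM. The line was thus 125-fold above the median of the others in females and 98.8-fold in males, in all 4 libraries, and it held 53.4% of all counts on this guide. F for female lines was 20.1 (adjusted p = 3.7e-44, edgeR) with DGRP_217 and 1.06 (adjusted p = 0.39) without it. The ratio of females to males was 6.66 in DGRP_217 and 5.14 over the means of the other lines.

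The high level did not extend evenly over the host. Uhg5 itself was at 253 CPM in females of DGRP_217, 6.70-fold above the median of the other lines and rank 2 of 96, and at 46.3 CPM in males, 4.94-fold above the median and rank 1. The second guide along Uhg5, Me28S-C3227a, was at 3.75 CPM in females, 5.59-fold above the median of the others (0.670 CPM) and rank 1, while in males it was at 0.162 CPM and rank 21. The remaining 8 guides of Uhg5 were within the range of the other lines in both sexes. Their ratios to the median in females were between 0.275 for Me28S-G2703c and 2.39 for Me18S-G1952, and several rest on fewer than 5 counts. The line was found by its value of Me18S-C1366, so its ranks are a description.

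**Figure D3:**
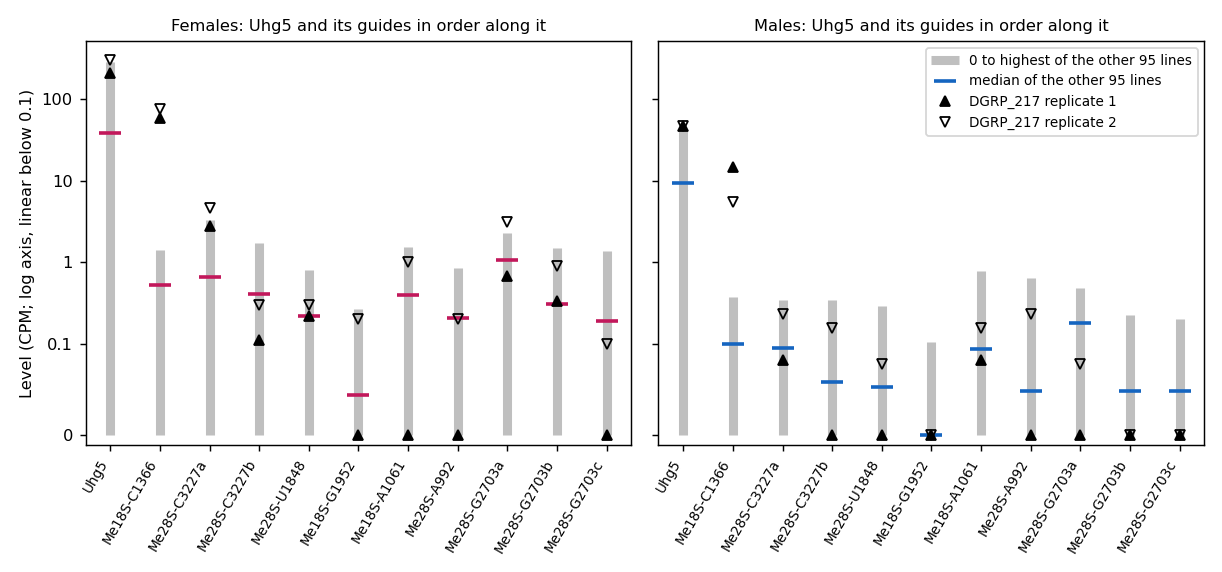
Uhg5 and its 10 guides in their order along the host, in CPM on an axis that is linear below 0.1 and logarithmic above, for females and males. Grey bars reach from 0 to the highest of the other 95 lines with the median marked, and triangles are the 2 replicates of DGRP_217, which lie far above the bar for Me18S-C1366.

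This line also set the highest sum over all guides, at 127 CPM in females and 21.5 CPM in males. Without Me18S-C1366 the sum in DGRP_217 was 60.5 CPM in females, still rank 1, and 11.3 CPM in males, rank 86 of 96. The female lines then spanned 2.85-fold, from 21.2 to 60.5 CPM.

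Me28S-C3227a had the next largest F in females, 2.80 (adjusted p = 1.5e-07), with lines between 0.0850 and 3.75 CPM (median 0.679). Me28S-G2017 of RpL3, the gene of a large ribosomal subunit protein, had F = 2.10 (adjusted p = 9.8e-05), with lines between 0 and 1.84 CPM (median 0.458). Me18S-C1968 had F = 1.86 (adjusted p = 0.0020, edgeR). For all 3 the spread was continuous, and the highest line was at most 1.23-fold above the second.

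Me28S-G3081a, the first guide along Uhg1, had F = 2.09 in females (adjusted p = 0.00011, edgeR), which was set by DGRP_28. That line was at 4.49 CPM, with 30 and 58 counts, 3.06-fold above the second line, DGRP_852, and without it F was 1.24 (adjusted p = 0.15). The call was also lost in limma (F = 1.27, adjusted p = 0.14) and with sequencing pool in place of flow cell (F = 1.34, adjusted p = 0.097). In males the 6 highest lines were DGRP_790 at 1.13 CPM, DGRP_589 at 0.954, DGRP_712 at 0.680, DGRP_28 at 0.641, DGRP_748 at 0.612 and DGRP_852 at 0.387 CPM, and the next line was at 0.214 CPM. The median male line was at 0.0492 CPM and 23 male lines had no count. Of these 6 lines, 5 were among the 7 highest female lines, and DGRP_589 had rank 24. In the male fit without a filter F was 2.38 (adjusted p = 2.0e-06).

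In males 2 of the 4 guides with a mean of at least 5 counts were called, against 89.6% of 18944 transcripts, and without a filter 9 of 63 were called against 54.9%. Me28S-A1322 had F = 3.19 (adjusted p = 2.2e-08), with lines from 2.01 to 7.39 CPM, and its replicates had a Pearson correlation of 0.52 over the 96 male lines after flow cell means were subtracted. DGRP_712 was the highest line in both sexes for this guide. Me18S-C1968 had F = 2.78 (adjusted p = 1.1e-08), but its replicates had a correlation of -0.06. Its highest male line, DGRP_362, had 67 counts in replicate 1 and 1 count in replicate 2, and without that line F was 2.11 (adjusted p = 2.9e-05). Without flow cell in the fit F was 0.76 (adjusted p = 0.92), and limma gave 0.93 (adjusted p = 0.65), so the call in males rests on the model. Me18S-G1358b (F = 0.82) and Me28S-A771 (F = 1.16) were not called.

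Between the sexes, the line values of the guides were related for few guides. These correlations over 96 lines, on log2 CPM with flow cell means subtracted, are a description, since libraries of both sexes share flow cells. Pearson's r was 0.66 for Me18S-C1366, but 0.01 without the 2 farthest lines. For Me28S-G3081a it was 0.51, and 0.47 without the 2 farthest lines. For Me28S-A1322 it was 0.37 and 0.41, and for Me18S-C1968 it was 0.22 and 0.28. Me28S-C2645b had 0.40 and 0.30, and Me28S-C3227b had 0.31 and 0.33, at male means of 0.917 and 1.01 counts. Of the 63 counted guides, 29 had a mean under 1 count in males. The part of counting error in the low correlations was not tested. Me18S-A1806, the guide without a host, had 0.48 and 0.36, at means of 1.85 counts in females and 0.719 in males.

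The replicates were compared because, in most male lines, replicate number goes with flow cell. Flow cell A held replicate 1 and flow cell B replicate 2 of 76 male and 45 female lines, so that replicate number and flow cell cannot be told apart there. The summed level of methylation guides in replicate 2 of males was 0.838 times that in replicate 1 and was lower in 80 of 96 lines, while for the H/ACA guides it was 0.312 times and lower in 93 lines. In females it was 0.981 times for the methylation guides (lower in 51 lines) and 0.678 times for the H/ACA guides (lower in 61 lines). The methylation guides as a sum therefore moved less between replicates than the H/ACA guides did in both sexes.

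Me18S-C1968 differed most. In males its replicate 1 libraries held 864 counts and were between 0 and 8.02 CPM with a median of 0.696, and its replicate 2 libraries held 177 counts and were between 0 and 0.441 CPM with a median of 0.122. It was lower in replicate 2 in 89 of 96 lines, by a log2 difference of -2.35 ± 0.13 (adjusted p = 1.7e-38, edgeR's quasi-likelihood test with line as a block and Benjamini-Hochberg adjustment). It was the only 1 of 4 guides called, beside 47.3% of 18944 transcripts, of which 21.7% were lower in replicate 2. Me28S-A1322 (0.08 ± 0.04), Me18S-G1358b (0.16 ± 0.08) and Me28S-A771 (-0.01 ± 0.09) were not called, and each was lower in replicate 2 in 37 to 41 lines. The order of the male lines by Me18S-C1968 in replicate 1 thus did not carry over to replicate 2, whereas that of Me28S-A1322 did in part, by the correlations given above.

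Without a filter 22 of 63 guides were called between male replicates, beside 28.1% of all transcripts. Of these 17 were lower in replicate 2, beside 14.6% of transcripts, and 5 were higher, beside 13.5%. The lower guides included Me28S-A2589b of dom (346 and 96 counts, log2 difference -1.85 ± 0.17) and Me28S-A2634a (-1.25 ± 0.30). The higher guides were Me28S-G3255b (5 and 37 counts, 1.44 ± 0.41), Me28S-C788b (13 and 56 counts, 1.32 ± 0.37), Me28S-A982a (51 and 101 counts, 0.75 ± 0.27), Me28S-A774a (102 and 196 counts, 0.74 ± 0.16) and Me28S-C3227a (82 and 136 counts, 0.54 ± 0.19). Guides of 1 host moved in opposite ways, as in Uhg4, where Me28S-A982b fell by 0.35 on the log2 scale and Me28S-A982a and Me28S-G3255b rose. In the same fit 99 of 106 H/ACA guides were lower in replicate 2, with a median log2 difference of -1.99, and the median over the 63 methylation guides was -0.11. The summed level of the methylation guides without Me28S-A1322 was nonetheless 0.752 times as high in replicate 2 and lower in 82 of 96 male lines.

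**Figure D4:**
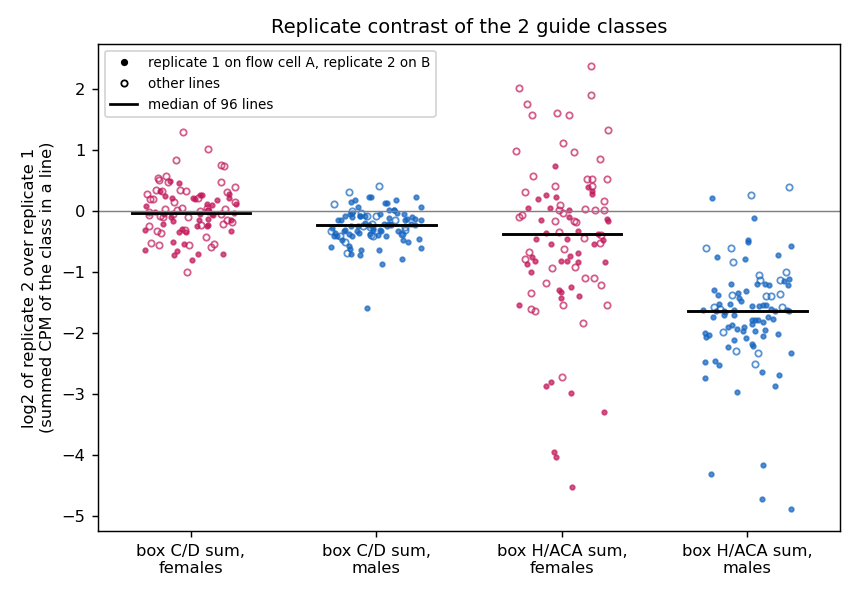
Log2 ratio of replicate 2 to replicate 1 of the summed CPM of the methylation guides and of the H/ACA guides in each line, by sex, with bars at the median of 96 lines. Filled points are lines whose replicates were on flow cells A and B in that order, and the sum was lower in replicate 2 in 80 male lines for the methylation guides and in 93 for the H/ACA guides.

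In females 6 of 24 guides were called between replicates, beside 62.5% of 14760 transcripts. Lower in replicate 2 were Me28S-A2589b (-1.09 ± 0.15), Me28S-A2564 (-0.62 ± 0.12), Me28S-A1322 (-0.28 ± 0.05), Me18S-C1968 (-0.26 ± 0.11) and Me18S-C1831 (-0.20 ± 0.09), and Me28S-G3255a was higher (0.25 ± 0.11). The share of transcripts lower in replicate 2 was 34.4% and of those higher 28.1%. Whether the replicate difference itself differed between the sexes was tested as an interaction. Without a filter 17 of 63 guides were called beside 21.7% of 39239 transcripts, a share near the background, and 15 of them had a lower value in males than in females, beside 13.5% of transcripts, while 2 had a higher value, beside 8.18%. With the filter 10 of 15 guides were called beside 49.4% of 18062 transcripts, 9 of them lower in males (30.9% of transcripts) and 1 higher (18.5%), but 11 of the 15 passed through their female libraries and their number says nothing about the group. Of the guides with enough counts in males, Me18S-C1968 had an interaction of -2.15 ± 0.21 and Me28S-A1322 one of 0.28 ± 0.07.

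Levels by flow cell showed the same guides at the extremes. Over female replicate 1 libraries, Me18S-C1968 had a median of 5.88 CPM on flow cell A (46 libraries) and 0.505 CPM on flow cell C (22 libraries), and Me28S-A2564 had 2.31 and 0.0562 CPM. Me28S-A1322 had 4.92 and 5.90 CPM on these flow cells, in the other direction and by a much smaller factor. The female replicate 1 libraries on A and on C came from different lines, so line and flow cell cannot be told apart in these values. In males the median of Me18S-C1968 was 0.696 CPM on flow cell A and 0.775 on flow cell G, both in replicate 1, and 0.133 on flow cell B and 0.140 on flow cell D, both in replicate 2. In males the level of this guide went with the replicate number on both pairs of flow cells. The 16 male lines on flow cells G and D share no flow cell with the other male lines, so between these lines and the rest, line and flow cell cannot be told apart.

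Guides varied together only weakly across lines. Over the 24 guides with a mean of at least 5 counts in females, the mean Pearson correlation of the line values with flow cell means subtracted was 0.15 over 276 pairs, with 245 pairs above 0 and a range of -0.19 to 0.45. With replicate 1 alone the mean was 0.067 and with replicate 2 alone 0.16. The pairs share libraries and depth. Without the subtraction the mean was 0.27, and for the 102 H/ACA guides with the same minimum the means were 0.49 and 0.69. The families differ in counting error, since the median total was 835 counts per counted methylation guide and 59371 per H/ACA guide. The part of counting error in these means was not tested. The 8 pairs that share a host had a mean of 0.26 and the other pairs 0.15, and the highest value, 0.45, was that of Me18S-A1576 in Uhg2 and Me28S-A982b in Uhg4. Some of the 8 pairs lie in Uhg5, whose guides Me18S-C1366 and Me28S-C3227a were highest in DGRP_217. Without that line the mean over all 276 pairs was 0.15, and the mean of the 8 pairs was not computed. Me28S-A1322 had a mean correlation with the other guides of 0.07. In males the 4 guides that passed had a mean of 0.06 over 6 pairs, 0.14 without the subtraction, 0.19 in the 20 lines outside flow cells A and B, and 0.027 and 0.032 with replicate 1 or replicate 2 alone. For the same 24 guides as in females it was 0.08 in males, where most had a mean under 5 counts.

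The methylation guides as a group followed the H/ACA guides in some sets of libraries and not in others. Over the 96 female replicate 1 libraries, the summed log2 levels of the 2 families, without Me28S-A1322, had a Pearson correlation of 0.84 (Spearman 0.84), and it was 0.85 without the 2 libraries farthest from the median. It was 0.57 over female replicate 2 libraries, 0.58 over male replicate 1 libraries and 0.07 over male replicate 2 libraries. Within single flow cells of females in replicate 1 it was 0.58 on A (46 libraries), 0.47 on C (22), 0.86 on D (14) and 0.26 on F (9), and in replicate 2 it was 0.52 on B (46), 0.51 on C (15) and 0.06 on D (32). In males it was 0.45 on A (76) and 0.65 on G (16) in replicate 1, and 0.06 on B (77) and -0.46 on D (16) in replicate 2, so that the sign differed between flow cells of the last set. Without the 2 farthest libraries of each flow cell, the female replicate 1 values were 0.55, 0.36, 0.65 and 0.52, in the same order. Those of female replicate 2 were 0.56, 0.54 and 0.35. The male values were then 0.44 and 0.38 in replicate 1, and 0.17 and -0.28 in replicate 2. The 2 sums share libraries and scaling, so these values are a description.

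**Figure D5:**
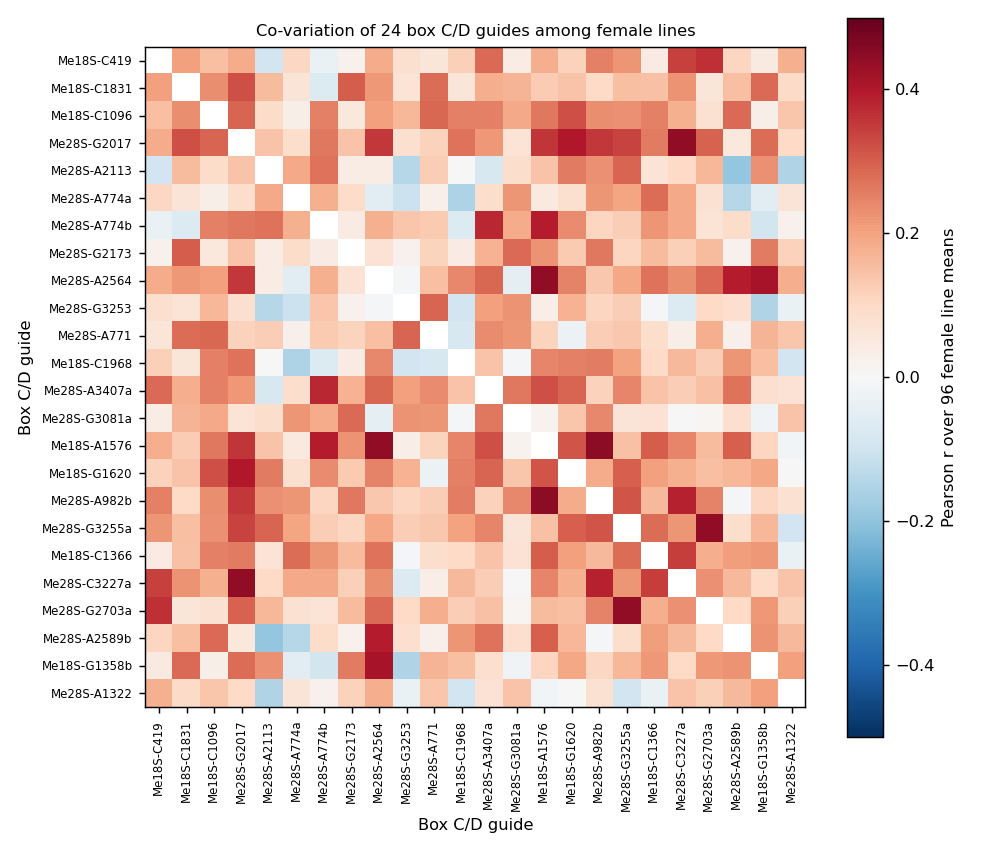
Pearson correlations between the 24 guides across the 96 female lines, on log2 CPM with flow cell means subtracted. Most pairs lie a little above 0, and none is above 0.5.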

How the data were processed

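Whole flies of 96 DGRP lines reared on ethanol medium were profiled by RNA sequencing in 2 replicates per line and sex. Per the labels and the methods of the study, the authors depleted ribosomal RNA, made strand-marked, size-selected libraries and sequenced single-end reads. They trimmed adapters (cutadapt 1.6), removed reads that matched ribosomal, microbial or repeat sequences (BWA 0.7.10), aligned the remainder to BDGP5 (STAR 2.4.0e) and counted reads on gene models (HTSeq, strand setting not given in the sources used here). The authors deposited raw read counts per gene model and library, neither normalized nor pooled. Reads that matched several places (25.8% of those tallied), were ambiguous (1.39%) or fell on no gene (2.85%) were not counted on a gene. They entered no library size. This can lower guides with near-identical copies, but the likeness of the copies was not measured.

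Guides, lengths and hosts were taken from release 6 (BDGP6), of which no position is given, and 16876 FlyBase identifiers were matched to a symbol. Counts were tested with edgeR 4.0.16 (TMM, quasi-likelihood F-test, a minimum mean of 5 counts in the libraries fitted, Benjamini-Hochberg adjustment over all transcripts, threshold 0.05), in R 4.3.3 with limma 3.58.1 and DESeq2 1.42.0 as alternatives. For each fit 1 common dispersion was estimated from 200 highly expressed genes. Sex was tested on summed replicates with line as a block, line within each sex with flow cell as a covariate, and replicate 2 against 1 within line. Correlations used log2 CPM with a prior count of 2. Alternatives were other scaling, no filter, limma, pool or no batch covariate, a replicate block, parts of the lines and single replicates. The tests were tested on simulated data.

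Named guides were those with the highest level per length, the largest sex, line and replicate differences past the threshold, and those next to the filter, and other guides were named after their values were seen. The members and lists were chosen with earlier results of these data known. The sequences of the guides were not used here.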

Additional observations from a re-analysis of the deposited data

Results flagged for a closer look

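In 10 of 15 guides tested, the log2 difference between replicate 2 and replicate 1 differed between the sexes, beside 49.4% of 18062 transcripts. The test was edgeR's quasi-likelihood test of the sex by replicate interaction (Benjamini-Hochberg adjusted p from 2.2e-19 to 0.049, 96 lines in each sex). Since 11 of the 15 passed the filter through their female libraries, the number of calls says nothing about the group. The value in males minus the value in females was -2.15 for Me18S-C1968, -1.64 for Me28S-A2564, -1.04 for Me28S-G2703a, -0.77 for Me18S-A1576, -0.76 for Me18S-C1366, -0.58 for Me18S-C419, -0.55 for Me28S-A982b, -0.53 for Me28S-G3255a and -0.44 for Me28S-A3407a. It was 0.28 for Me28S-A1322, the only 1 of the 10 with a positive value. Of these 10 calls, 8 remained with DESeq2's size factors, 8 with scaling to total counts and 6 in the lines on flow cells A and B. Over all transcripts, 52.9%, 52.2% and 39.5% were called in these 3 settings. All but Me18S-C1968 and Me28S-A1322 had a mean under 5 counts in males, and Me18S-C1366, with 53.4% of its counts in DGRP_217, would not have passed the filter without that line (mean of 3.43 counts). Over all 96 lines, flow cells were used in different proportions for the 2 sexes, so sex and flow cell cannot be told apart in those values. In 44 lines both sexes shared flow cells A and B in the same order, and the 6 calls that remained come from these lines. Unequal use of flow cells is therefore absent from that setting. Lanes still differed between the sexes there, and the part of lane was not tested.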

How the results depend on the processing

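No guide had a mean of 50 counts, so the stricter filter gave no value, and the tests of line and of replicate could not be fitted with 1 library per line. Of 159 alternative values for single guides, 145 kept their direction and side of the threshold, 12 lost the call and 2 changed sign. Part of these are sex values of guides that passed the filter through their female libraries and had to differ. The tally therefore does not measure how stable the results are. For snoRNA:Me28S-A1322 the sex difference was between -0.295 (without replicate 2) and 0.0640 (without replicate 1), and for snoRNA:Me18S-G1358b it was -0.0126 in the lines on flow cells A and B. Without a filter, 59 of 63 guides were called for sex (70.5% of all transcripts), 9 for male lines (54.9%), 22 between male replicates (28.1%) and 17 for the interaction (21.7%). In the lines outside flow cells A and B, 4 of 23 were called among female lines (65.1% of all transcripts), 1 of 3 among male lines (61.3%), 0 of 3 between male replicates (13.6%), 1 of 23 between female replicates (34.5%) and 2 of 14 for the interaction (5.87%). Among male lines 1 of 4 guides was called with limma (87% of all transcripts), with no flow cell covariate (86.1%) and with pool as covariate (89.4%). Between male replicates 2 of 4 guides were called with limma (46.4%). For sex, 15 of 16 guides were called without replicate 2 (92.1% of all transcripts) and 16 of 17 without replicate 1 (95%). Most of these guides passed the filter through their female libraries, so these 2 numbers say nothing about the group. Leaving out 1 replicate gave mean pair correlations of 0.0667 to 0.159 in females and 0.0271 to 0.0318 in males. The exclusion of DGRP_217, DGRP_28 or DGRP_362 was chosen after seeing the data. The median of all transcripts in the sex difference shifted by 0.10 with DESeq2's size factors and by -0.12 without a filter, and in the interaction by 0.11 with DESeq2's size factors, on the log2 scale.

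Replicate numbers were shared across the sexes. In each of the 96 lines, the deviations of same-numbered libraries from their group means were correlated between the sexes over 18062 transcripts. The correlations lay between -0.14 and 0.42 with a median of 0.07, above 0.1 in 40 lines and below -0.1 in 3. Same-numbered libraries thus deviated together in part of the lines, and the main test for sex did not use replicate number. With the replicate block 14 of 15 guides were called for sex (95.7% of all transcripts), 14 of 24 among female lines (85.7%) and 2 of 4 among male lines (90.5%). For sex, 11 of the 15 passed the filter through their female libraries, so their number says nothing about the group. Me18S-G1358b lost its sex call under the block (0.14, adjusted p = 0.050).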
